A study of Homo sapiens with 6 samples.

Results

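The genes described here are 9 genes of the DNA methylation machinery: the methyl-CpG-binding domain genes MBD1, MBD2, MBD3 and MBD4, the DNA methyltransferase genes DNMT1, DNMT3A and DNMT3B, and the dioxygenase genes TET2 and TET3. They were taken by name from the 23619 gene symbols of the deposited tables, and all 9 were found. Of these, 8 had at least 1 FPKM in 3 or more libraries, and DNMT3B did not. MBD2 was chosen because it was higher in all 3 resistant pools, so its difference between the groups is given as a description, with no test. The other 8 were chosen for their function, with earlier results of these data known. The data were 6 libraries of total RNA from HG3, a lymphoblastoid line of chronic lymphocytic leukaemia B cells: 3 control pools and 3 pools resistant to fludarabine, a purine nucleoside analogue used against that leukaemia, with 1 library per pool and group and the numbers 17, 18 and 28 in both groups. The series title names transposon mutagenesis, and its design text describes 3 pairs of pools, in which resistance was to be compared with the parental state. Drug dose, length of selection and whether the control pools also carried insertions were not given in the sources used here. Each library is a pool of cells, so the labels do not tell whether a change is carried by all cells or by some.

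DNA methylation is written on the cytosine of CpG dinucleotides. DNMT3A and DNMT3B set new marks and DNMT1 copies them onto the new strand after replication, with UHRF1 as the factor that recognises the copied site. TET enzymes oxidise methylcytosine as the opening step of its removal. MBD proteins share a methyl-CpG-binding domain, by which MBD2 reads the mark. MBD2 and MBD3 are subunits of alternative forms of the NuRD complex, which remodels nucleosomes and deacetylates histones. MBD1 binds methylated CpG and represses transcription, and MBD4 is a glycosylase that repairs mismatches arising from deaminated methylcytosine. DNMT3A and TET2 are among the genes often mutated in blood cancers.

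The promoters of the genes with the largest differences, and of MBD3, the closest relative of MBD2, are shown because CpG is the dinucleotide these proteins act on. Each runs 5′ to 3′ on the gene's own strand, from 250 bases before the start of transcription to 50 after it, with every CpG in capitals. Sequences are from RefSeq on GRCh38.p14, which is not the build of the authors' alignment (hg19). MBD2 lies at chr18:54224620-54224919 on the minus strand and MBD3 at chr19:1592816-1593115 on the minus strand. The 2 start sites that RefSeq lists for TET3 give chr2:73984660-73984959 and chr2:74002442-74002741, both on the plus strand.
MBD2 promoter: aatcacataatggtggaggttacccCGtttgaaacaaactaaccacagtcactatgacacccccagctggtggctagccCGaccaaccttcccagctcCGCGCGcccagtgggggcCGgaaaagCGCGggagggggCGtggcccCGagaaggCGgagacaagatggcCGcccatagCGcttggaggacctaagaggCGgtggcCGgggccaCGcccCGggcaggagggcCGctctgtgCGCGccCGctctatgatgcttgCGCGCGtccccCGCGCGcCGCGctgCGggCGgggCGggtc
MBD3 promoter: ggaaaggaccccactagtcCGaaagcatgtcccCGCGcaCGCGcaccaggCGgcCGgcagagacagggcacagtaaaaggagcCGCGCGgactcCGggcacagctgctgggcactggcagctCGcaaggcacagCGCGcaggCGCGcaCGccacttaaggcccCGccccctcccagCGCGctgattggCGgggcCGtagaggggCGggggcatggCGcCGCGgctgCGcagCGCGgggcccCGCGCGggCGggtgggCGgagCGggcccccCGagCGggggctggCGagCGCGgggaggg
TET3 promoter, upstream start: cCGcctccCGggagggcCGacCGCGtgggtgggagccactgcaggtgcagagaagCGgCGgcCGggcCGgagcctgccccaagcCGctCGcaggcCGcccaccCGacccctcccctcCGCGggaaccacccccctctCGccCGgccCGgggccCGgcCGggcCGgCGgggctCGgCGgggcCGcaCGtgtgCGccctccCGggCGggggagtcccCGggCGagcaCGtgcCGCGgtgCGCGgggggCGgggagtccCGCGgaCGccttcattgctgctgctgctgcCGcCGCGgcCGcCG
TET3 promoter, downstream start: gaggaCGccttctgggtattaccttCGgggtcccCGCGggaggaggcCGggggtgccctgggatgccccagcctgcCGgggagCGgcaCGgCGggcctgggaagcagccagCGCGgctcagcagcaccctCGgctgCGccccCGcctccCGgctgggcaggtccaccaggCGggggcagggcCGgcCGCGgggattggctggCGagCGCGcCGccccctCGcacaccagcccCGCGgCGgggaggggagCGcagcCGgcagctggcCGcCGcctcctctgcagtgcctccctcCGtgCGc
MBD2 had 32 CpG in its 300 bases, more than 81.1% of the 35114 RefSeq promoters of that length, whose median was 14. MBD3 had 40 CpG, and the TET3 starts had 45 and 33. MBD1 (27), MBD4 (29) and DNMT1 (30) were also above the median. DNMT3A had 18 to 46 CpG over 6 listed starts. Below the median were DNMT3B, with 3 CpG at its single listed start, and the lower of the 2 TET2 starts, with 13 CpG against 35 at the other. The GC box GGGCGG, searched on both strands, was found 2 times in the MBD2 promoter, 4 times in that of MBD3, and in 44.95% of all promoters. Matches that overlap a counted one were left out, and the 3′ end of the MBD2 window holds such a match. The CRE (TGACGTCA) and the TATA box (TATAAA), also searched on both strands, were in none of the windows of the 9 genes, and in 1.85% and 11.53% of all promoters. Methylation itself was not measured in these samples, so nothing here bears on the state of these CpG.

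Levels below are in FPKM, fragments per kilobase of transcript scaled to the number of mapped fragments, as the authors deposited them, so levels are scaled by length and can be compared between genes. The number of genes at 1 FPKM or more ran from 10936 to 11331 over the 6 libraries. Absolute depth is not known, but steps between low values put the depth of the 6 libraries within 1 to 1.31 of each other. Resistant 18 stood apart, at 58.8 on a first principal component that held 41.4% of the variance and on which the other 5 libraries lay between -33.5 and 6.8. All 9 genes chosen as markers of B cells were present, with a summed level of 4620 to 5120 FPKM in controls and 5110 to 5410 in resistant libraries. The T cell genes CD3D, CD3E, CD3G, CD2 and CD8A were at 0.362 FPKM or less in every library, and the T cell list's sum, 39.4 to 62.4 FPKM in controls and 20.8 to 27.2 in resistant libraries, was almost wholly LCK, a kinase that leukaemic B cells can also express. Summed levels of the 5 NK cell genes were at most 1.89, of the 5 erythroid genes at most 1.75 and of the 6 stromal genes at most 6.27 FPKM. The myeloid list of 7 genes ranged from 5.46 to 11.1 in controls and from 3.39 to 40.1 in resistant libraries. Of these genes, S100A9 had 34.1 FPKM in resistant 17 and 0.320 to 8.03 in the other libraries. CD14 was at 0 in all controls and at 0.141 or less in resistant libraries. The part of these lists in the results below was not tested.

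MBD2 was high in every resistant library. Controls 17, 18 and 28 had 29.9, 26.1 and 25.4 FPKM, and resistant 17, 18 and 28 had 61.6, 60.2 and 57.1. The groups did not overlap, and the lowest resistant library stood well clear of the highest control. Mean levels were 27.1 ± 2.45 in controls and 59.6 ± 2.32 in resistant pools (SD, n = 3 each), 2.2-fold higher. On the log2(FPKM + 1) scale pools 17, 18 and 28 differed by 1.02, 1.18 and 1.14, with an SD of 0.0827. The MBD2 value of resistant 18 lay between those of resistant 17 and 28. Of the 11307 tested genes, 10.1% had all 3 resistant values above all 3 controls, and 18.9% were higher in all 3 pools. Since MBD2 was chosen for its rise in all 3 pools, nothing is read from these shares or from the likeness between pools. Of all tested genes, 71.8% to 74.8% lay below MBD2 in the control libraries and 85.1% to 85.9% in the resistant libraries. In pooled RNA, more cells with the transcript and more transcript per cell cannot be told apart, for MBD2 and for the genes that follow.

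**Figure D1:**
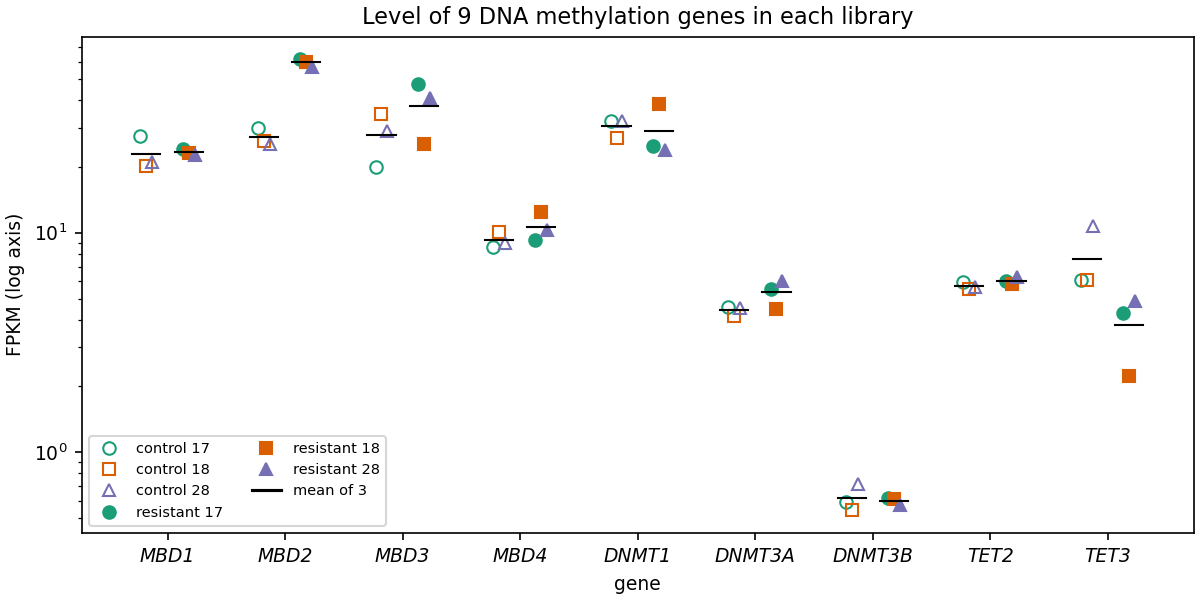
FPKM of the 9 genes (log axis) in each library, open symbols for control and filled symbols for resistant pools, with the mean of 3 libraries as a line. MBD2 lies between 25.4 and 29.9 in controls and between 57.1 and 61.6 in resistant pools, while DNMT3B stays below 1 FPKM throughout.

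The other MBD genes did not share this pattern. MBD3 had 20.0, 34.8 and 28.98 FPKM in control libraries 17, 18 and 28, against 47.5, 25.3 and 41.0 in their resistant counterparts. It was higher in resistant pools 17 and 28 and lower in resistant 18, so the groups overlapped. The log2 difference over all pools was 0.42 (SE 0.30, 95% interval -0.28 to 1.11, limma adjusted p = 0.579). It was 0.20 without control 17, 0.02 without pool 17 and 0.85 without pool 18. When trends with GC and length were taken out it was 0.53 (limma adjusted p = 0.372). MBD3 shares exon sequence in GENCODE v29 with AC005943.1 on the same strand and AC005943.2 on the other, both absent from the deposited gene symbols. MBD1 had 27.7, 20.2 and 20.9 FPKM in controls, against 23.9, 23.0 and 22.6 in their resistant counterparts, all within the control range. Its difference was 0.03 (95% interval -0.37 to 0.43, limma adjusted p = 0.962), and its sign turned with the normalization (-0.03 under quantile normalization). MBD4 had 8.63, 10.03 and 8.99 FPKM against 9.25, 12.4 and 10.3. It was slightly higher in each pool, yet the groups overlapped and the difference of 0.18 did not pass (95% interval -0.20 to 0.57, limma adjusted p = 0.672). MBD4 shares exon sequence with the antisense gene IFT122, and without a record of strand in the counting the reads of the overlap cannot be assigned. IFT122 itself had 4.47 to 5.67 FPKM in controls and 3.27 to 6.37 in resistant libraries.

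The balance among the MBD genes differed between the groups. MBD2 made up 34.7%, 28.6% and 30.1% of the summed FPKM of MBD1 to MBD4 in controls 17, 18 and 28. In resistant 17, 18 and 28 its share was 43.3%, 49.8% and 43.6%. The ratio of MBD2 to MBD1 lay between 1.08 and 1.29 in controls and between 2.53 and 2.61 in resistant libraries, with the narrower spread in the latter. MBD2 against MBD3 was less even. Their ratio was 1.5, 0.749 and 0.876 in controls and 1.30, 2.38 and 1.39 in resistant libraries, so control 17 lay above resistant 17. These ratios contain MBD2 and carry its selection with them.

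DNMT1 had the highest mean of the 9 in controls, with a range that overlapped those of MBD3 and MBD2, and differed in opposite directions between pools. It had 32.4, 27.0 and 32.1 FPKM in control libraries 17, 18 and 28, against 24.9, 38.5 and 23.9 in their resistant counterparts. By pool number it differed by -0.37 (17), 0.50 (18) and -0.41 (28), and the mean of these was -0.09 (SE 0.22, 95% interval -0.61 to 0.42, limma adjusted p = 0.889). Its sign turned when trends with GC and length were taken out (0.01). The highest DNMT1 level of all was in resistant 18. DNMT1 shares exon sequence with S1PR2 in GENCODE v29, and S1PR2 had 10.7 to 11.6 FPKM in controls and 7.98 to 12.9 in resistant libraries.

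Genes of S phase followed the same order of pools as DNMT1. Of 24 replication genes, 22 were above 0 in pool 18, against 7 in pool 17 and 4 in pool 28, and their median differences were 0.83, -0.16 and -0.37. Over all tested genes the medians of those pools were 0.05, -0.03 and -0.01. Over the pools 0 of the 24 passed in limma, with 2 at an unadjusted p under 0.05 (TYMS and CDT1, both lower and named after their values were seen), against 13.1% of all genes. Summed S phase levels were 945 to 1040 FPKM in controls and 716 to 1800 in resistant libraries. UHRF1, the partner of DNMT1 at replicated DNA, had 7.21, 4.20 and 3.85 FPKM in controls, against 8.45, 23.6 and 3.99 in their resistant counterparts. Its difference in pool 18 was 2.24, against 0.20 and 0.04 in pools 17 and 28, and it did not pass (0.83 over the pools, SE 0.55, limma adjusted p = 0.554). HELLS, a remodelling factor needed for DNA methylation and named here after its values were seen, differed by 1.01 in pool 18 and by -0.25 and -0.61 in pools 17 and 28. The part of proliferation in the DNMT1 values was not tested.

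**Figure D2:**
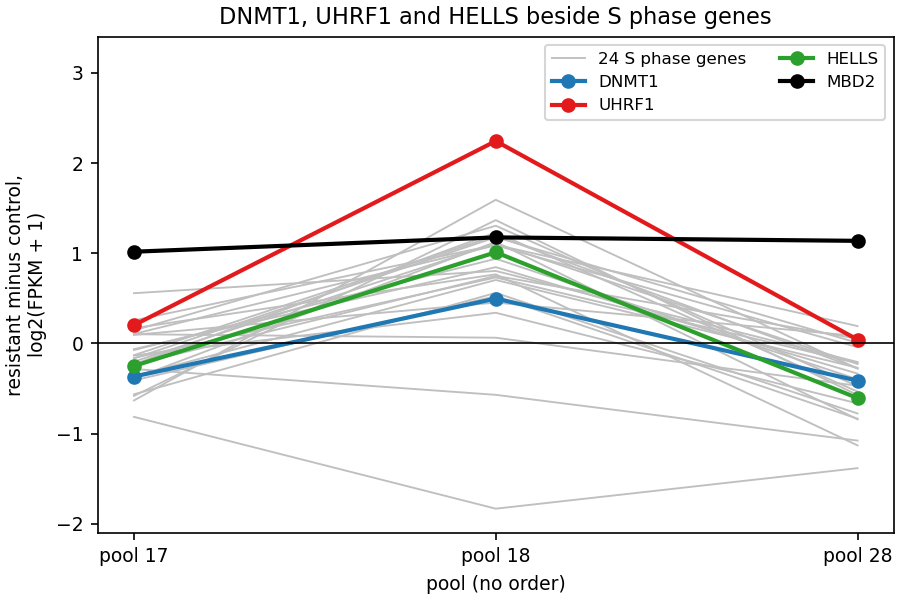
Differences on the log2(FPKM + 1) scale between resistant and control libraries in pools 17, 18 and 28 for DNMT1, UHRF1, HELLS and MBD2 (coloured and black lines) and 24 S phase genes (grey lines). DNMT1, UHRF1, HELLS and 22 of the 24 S phase genes lie above 0 in pool 18, whereas MBD2 lies between 1.02 and 1.18 in every pool.

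The writers of new methylation were lower in level than DNMT1. DNMT3A had 4.57, 4.17 and 4.51 FPKM in controls, against 5.53, 4.48 and 6.04 in their resistant counterparts. Resistant 17 and 28 were above all controls, and resistant 18 lay within the control range. The difference of 0.22 did not pass (SE 0.16, 95% interval -0.15 to 0.60, limma adjusted p = 0.584). DNMT3B, the other enzyme of new methylation, had 0.591, 0.542 and 0.716 FPKM in controls, against 0.615, 0.608 and 0.572 in their resistant counterparts. It did not reach the minimum of 1 FPKM in 3 libraries and was not tested. DNMT1 accounted for 85.2% to 86.3% of the summed FPKM of the 3 enzyme genes in controls and for 78.3% to 88.3% in resistant libraries. DNMT3L, which has no catalytic activity and stimulates the DNMT3 enzymes in germ cells, was listed at 0.166 FPKM or less.

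TET3 was lower in each resistant pool. It had 6.06, 6.05 and 10.7 FPKM in control libraries 17, 18 and 28, against 4.30, 2.22 and 4.89 in their resistant counterparts. The groups did not overlap, although control 28 stood well above the other controls and resistant 18 well below the other resistant libraries. Means were 7.59 ± 2.67 and 3.804 ± 1.40 FPKM (SD, n = 3 each), 1.996-fold lower in resistant pools. The log2 difference was -0.84 (SE 0.30, 95% interval -1.55 to -0.13), which had an unadjusted p of 0.0261 in limma and did not pass over all genes (limma adjusted p = 0.311). Pool by pool it was -0.41, -1.13 and -0.99, and with GC and length trends removed -0.11, -0.93 and -0.63 in pools 17, 18 and 28, a mean of -0.56 (limma adjusted p = 0.347). Without control 28 the difference over the pools was -0.60 (limma adjusted p = 0.835), and without resistant 18 it was -0.58 (limma adjusted p = 0.227).

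TET2 was nearly level between the groups in the deposited values. It had 5.95, 5.53 and 5.67 FPKM in controls, against 6.01, 5.85 and 6.28 in their resistant counterparts. Resistant 17 and 28 lay just above all controls and resistant 18 within their range, and the difference of 0.07 did not pass (SE 0.14, 95% interval -0.25 to 0.39, limma adjusted p = 0.867). The ratio of TET2 to TET3 was 0.982, 0.914 and 0.531 in controls and 1.40, 2.64 and 1.28 in resistant libraries, without overlap. TET1, the third TET enzyme, was at 0.187 FPKM or less in all 6 libraries and was not tested. TDG, the glycosylase that removes the oxidised bases made by TET enzymes, differed by 0.07 (limma adjusted p = 0.879) and by -0.02 once trends with GC and length were taken out.

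**Figure D3:**
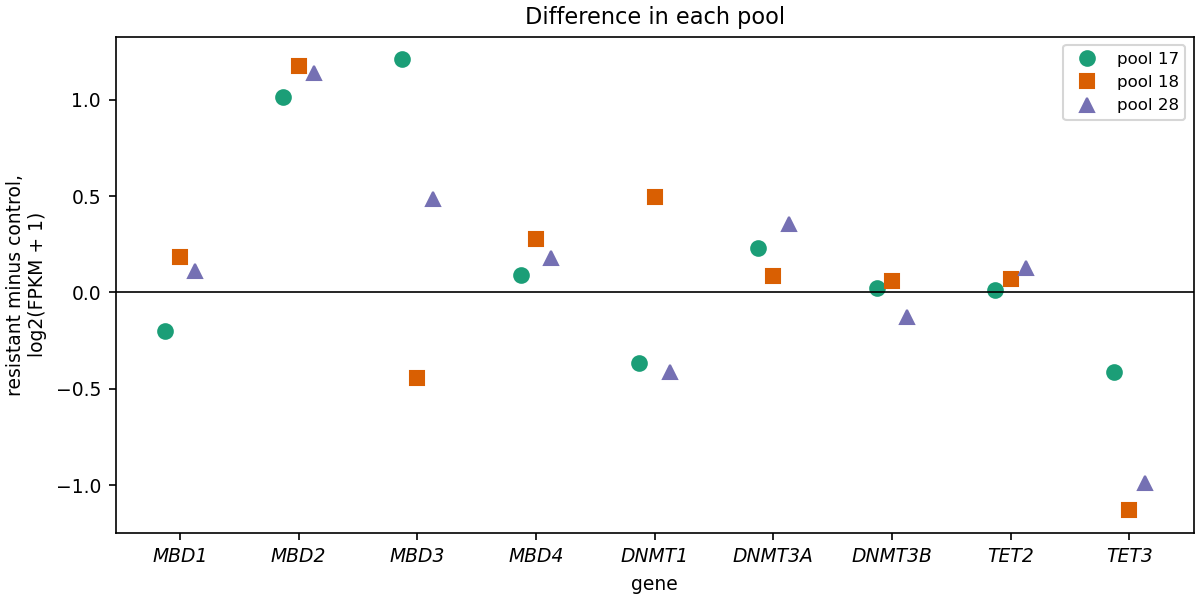
Differences on the log2(FPKM + 1) scale between resistant and control libraries of the same pool number for the 9 genes. MBD2 is above 1 in all 3 pools, TET3 is below 0 in all 3 pools, and MBD3 and DNMT1 have opposite signs in pool 18 and in pools 17 and 28.

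Across the 7 tested genes other than MBD2, 0 passed the adjusted threshold, against 0.0354% of all 11307 tested genes (4 genes). At an unadjusted p under 0.05 there was 1, TET3, against 13.1% of all genes. All 3 resistant libraries lay below all 3 controls for 1 of the 7 (TET3), against 11.1% of all genes, and above them for 0 of the 7. MBD4, DNMT3A and TET2 were higher in all 3 pools and TET3 was lower in all 3, where 18.9% and 18.7% of all genes were. The median difference of the 7 was 0.07, and that of all tested genes 0.01.

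The order of levels in controls was DNMT1 (30.5), MBD3 (27.9), MBD2 (27.1), MBD1 (22.9), MBD4 (9.22), TET3 (7.59), TET2 (5.72), DNMT3A (4.42) and DNMT3B (0.617), in mean FPKM. Each of the leading 3 overlapped the next in its range over libraries, and so did MBD4 and TET3. MBD1 and MBD4, TET3 and TET2, TET2 and DNMT3A, and DNMT3A and DNMT3B did not overlap. In resistant libraries MBD2 (59.6) came before MBD3 (37.9) and DNMT1 (29.1), and its range did not overlap that of MBD3. This place of MBD2 carries its selection, so nothing is read from it. TET3 (3.804), the sixth in controls, came eighth, behind TET2 (6.04) and DNMT3A (5.35). The ranges of TET2 and DNMT3A overlapped, and so did those of DNMT3A and TET3.

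MBD2 and MBD3 act through the NuRD complex, and its subunits were read from the same fit. Of 13 listed genes 12 were tested, and 0 passed the adjusted threshold in limma, with 2 at an unadjusted p under 0.05 (GATAD2B and MTA1), where 13.1% of all tested genes were. GATAD2B, the subunit p66-beta, which bridges the MBD protein and the remodelling ATPase, had 3.89, 4.38 and 5.06 FPKM in controls, against 1.59, 1.53 and 1.41 in their resistant counterparts. All resistant values were far below all controls. Means were 4.45 ± 0.589 and 1.51 ± 0.0920 FPKM (SD, n = 3 each), 2.95-fold lower in resistant pools, with a log2 difference of -1.11 (SE 0.16, limma adjusted p = 0.135). It passed with weights on the libraries, which were 0.162 for resistant 18 and 1.03 to 1.93 for the others (limma adjusted p = 0.0233). With these weights 301 of all 11307 tested genes passed, against 4 without them, which also holds for the weighted values given below. Its paralogue GATAD2A had 11.3, 11.4 and 13.6 FPKM against 12.2, 11.5 and 14.1, a difference of 0.06 (limma adjusted p = 0.915) that turned to -0.02 when a library was left out. MBD2 exceeded GATAD2B 5.01- to 7.69-fold in controls and 38.8- to 40.5-fold in resistant libraries, a ratio that carries the selection of MBD2. GATAD2A exceeded GATAD2B 2.59- to 2.91-fold in controls and 7.53- to 10.035-fold in resistant libraries.

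MTA1, a scaffold subunit of NuRD, had 33.3, 34.8 and 36.6 FPKM in controls, against 24.0, 14.3 and 28.1 in their resistant counterparts, again without overlap. Its difference of -0.68 did not pass (SE 0.25, limma adjusted p = 0.322), and resistant 18 was the lowest of the 6. MTA3 (-0.23) also had all resistant values below all controls, and RBBP7 (0.28), a histone-binding subunit, had them all above (limma adjusted p = 0.558 and 0.537). The deacetylase gene HDAC2 differed by -0.45 (limma adjusted p = 0.390), with most of it in pool 28 (-0.90). HDAC1, CHD4, CHD3, MTA2, RBBP4 and CDK2AP1 differed by 0.12, 0.01, 0.34, -0.16, -0.17 and 0.33 and did not pass (limma adjusted p from 0.516 to 0.995). The signs of HDAC1, CHD4, CHD3 and RBBP4 turned under at least 1 alternative. CHD5 was listed at 0.0661 FPKM or less. Over the 12 tested subunits 1 was above and 3 were below without overlap, against 10.1% and 11.1% of all genes, and the median difference was -0.08.

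**Figure D4:**
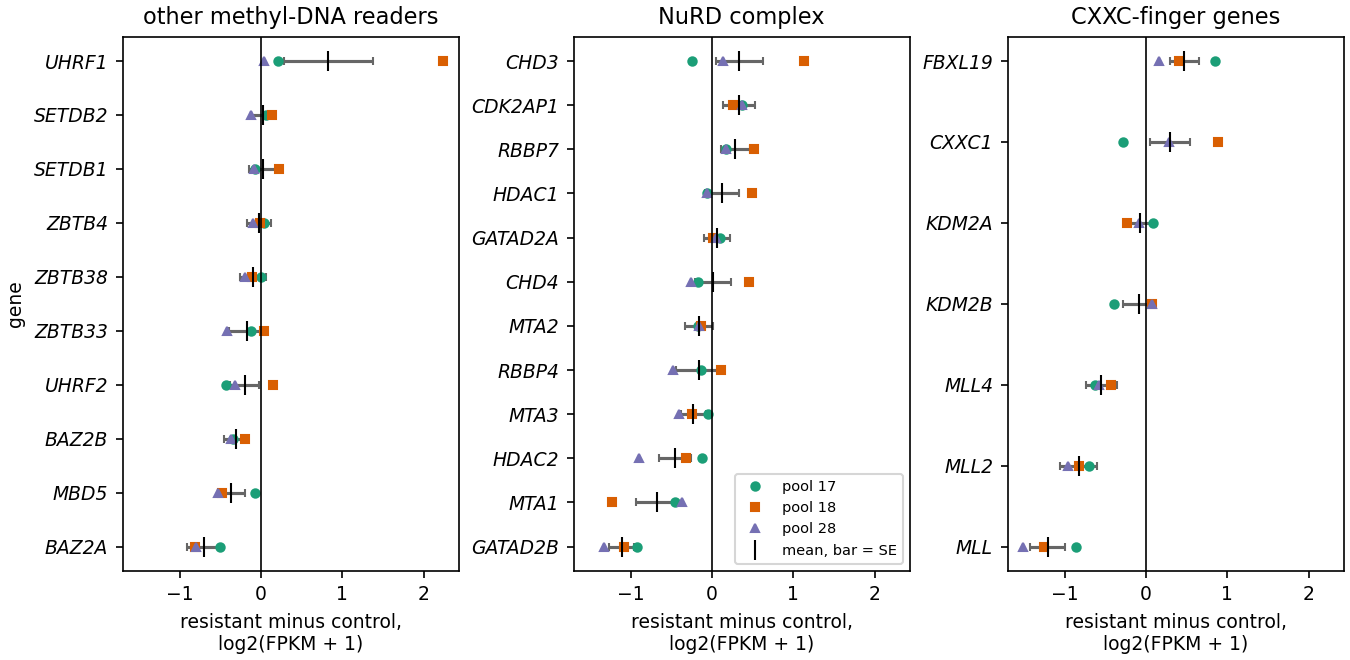
Differences on the log2(FPKM + 1) scale between resistant and control libraries for tested genes of 3 lists, with the mean over pools (vertical tick), its standard error from limma (bar) and the 3 pools (symbols). GATAD2B lies at -1.11 and MLL at -1.21 with all 3 pools below 0, and the wide bar of UHRF1 comes with a pool 18 value of 2.24.

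Of 10 tested genes listed as other readers of methylated DNA, 0 passed the adjusted threshold in limma. At an unadjusted p under 0.05 there was 1 (BAZ2A), against 13.1% of all genes. Whether each listed gene binds methylated DNA was not tested. BAZ2A, a subunit of the nucleolar remodelling complex that silences ribosomal DNA, had 8.39, 7.77 and 10.9 FPKM against 5.61, 3.99 and 5.82. These groups did not overlap, and the difference of -0.71 had an unadjusted p of 0.00865 (limma adjusted p = 0.228). BAZ2B (-0.31) and MBD5 (-0.37) also lay lower in all resistant libraries without passing (limma adjusted p = 0.422 and 0.399). With GC and length trends removed, BAZ2A, BAZ2B and MBD5 differed by -0.47, -0.20 and -0.22, and MBD5 in pool 17 by 0.09. MBD6, at 1.10 FPKM or less, was not tested. These 3 of 10 genes below all controls stood against 11.1% of all tested genes, and the list's median difference was -0.14.

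Genes with a CXXC finger, which binds unmethylated CpG, included the larger differences of the pathway. MLL, a histone H3 lysine methyltransferase gene, had 4.72, 5.85 and 8.41 FPKM in controls, against 2.14, 1.86 and 2.29 in their resistant counterparts, with a difference of -1.21 (SE 0.21, limma adjusted p = 0.158, and 0.0339 with library weights). MLL2 (-0.83) and MLL4 (-0.55) were lower in every pool as well and did not pass (limma adjusted p = 0.220 and 0.311). MLL, MLL2 and MLL4 had no matched GC content and length, so those trends were not taken out of their values. The symbols MLL2 and MLL4 have each been used for more than 1 gene, so whether MLL2 here carries a CXXC finger is not settled by the files. CXXC1, which lies beside MBD1 on chromosome 18, differed by 0.30 (limma adjusted p = 0.650), with 0.88 in pool 18. FBXL19, the only gene of the list above all controls, differed by 0.47 (limma adjusted p = 0.336) and was named after its values were seen. Of the 7 tested genes 0 passed the adjusted threshold in limma, with 4 at an unadjusted p under 0.05 (MLL, MLL2, MLL4 and FBXL19), where 13.1% of all tested genes were. With 3 of the 7 below and 1 above all controls, the shares of all genes were 11.1% and 10.1%. The median was -0.08.

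Of the writers' partners, 0 of 10 passed in limma, with 1 at an unadjusted p under 0.05 (DMAP1), against 13.1% of all genes. DMAP1, a protein that binds DNMT1, had 10.9, 10.04 and 7.96 FPKM in controls, against 22.1, 12.5 and 22.1 in their resistant counterparts. All resistant values were above all controls, as for 10.1% of all genes, and the difference of 0.87 had an unadjusted p of 0.0102 (SE 0.25, limma adjusted p = 0.237, and 0.0321 with library weights). ZBTB24 differed by 0.23 (limma adjusted p = 0.626). The median of this list was 0.30 over the pools and 0.86 in pool 18, where all 10 were above 0. Over all tested genes those medians were 0.01 and 0.05, and 6039 of 11307 were above 0 in pool 18. The S phase genes, of which 22 of 24 were above 0 in pool 18, had a median of 0.83 there. The part of proliferation in this list was not tested.

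On the side of demethylation, 0 of 15 passed in limma, with 2 at an unadjusted p under 0.05 (APEX1 and OGT), close to the 13.1% of all genes. APEX1, the endonuclease that cuts abasic sites in base excision repair, had 60.9, 42.2 and 24.8 FPKM in controls, against 89.8, 102 and 75.0 in their resistant counterparts. The groups did not overlap, and the difference of 1.12 had an unadjusted p of 0.00986 (SE 0.32, limma adjusted p = 0.235). OGT, the glycosyltransferase that binds TET proteins, had 33.2, 38.7 and 37.3 FPKM against 26.7, 28.999 and 28.8 and differed by -0.36 (limma adjusted p = 0.376). GADD45A, a stress gene linked to demethylation, was higher in resistant 17 and 28 (143 and 174 FPKM) than in resistant 18 (60.5), which lay within the control range of 53.6 to 83.3 (0.75, limma adjusted p = 0.467, and 0.0480 with library weights).

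The methyl donor cycle had 0 of 10 genes past the threshold in limma, and 0 with an unadjusted p under 0.05. AHCY, which clears S-adenosylhomocysteine, differed by -0.24, MTRR by -0.26 and SHMT1 by 0.45 (limma adjusted p = 0.699, 0.507 and 0.643), and 20.4 FPKM in resistant 18 set the SHMT1 value. Over the 6 lists together 63 genes were tested and 0 passed. At an unadjusted p under 0.05 there were 3 higher and 7 lower, against 5.99% and 7.14% of all genes, and 4 lay above and 11 below all controls without overlap, against 10.1% and 11.1% of all genes.

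Germline genes of the X chromosome and elsewhere are known to be kept silent in somatic cells by promoter methylation. Of 23 such genes 7 passed the minimum level and were tested, and 0 passed the adjusted threshold in limma, with 1 at an unadjusted p under 0.05 (PAGE1), against 13.1% of all genes. PAGE1 had 9.92, 1.10 and 9.30 FPKM in controls, against 0.675, 0.519 and 0.648 in their resistant counterparts, lower in each pool (-1.94, SE 0.60, limma adjusted p = 0.258). PAGE1 reached the minimum level only through its controls, so nothing is read from its test. MAGEA1 had 22.8, 22.4 and 16.7 FPKM in controls, against 1.20, 33.6 and 0.530 in their resistant counterparts. Resistant 17 and 28 were far below the controls and resistant 18 above them, and the difference of -2.13 did not pass (SE 1.07, limma adjusted p = 0.444). Leaving out a library or pool gave -3.55 to -1.30. MAGEA1 passed without resistant 18 (limma adjusted p = 0.00440), without pool 18 (0.0189) and with library weights (0.0308). Each of these settings removes or lowers the weight of resistant 18, the resistant library above the controls. Among all tested genes 13, 18 and 301 passed under them. MAGEA6 had 41.5 FPKM in resistant 17 and 0.635 to 3.81 in the other 5 libraries, and MAGEC2 had 9.38, 0.0670 and 3.26 FPKM in resistant libraries against 1.42 to 1.97 in controls. MAGEA3 (-0.87), MAGEA12 (-0.91) and CTAG2 (-0.998) did not pass (limma adjusted p = 0.404, 0.667 and 0.469), while MAGEA10 and PAGE5, above 1 FPKM in at least 1 library, were not tested. MAGEA3, MAGEA6 and MAGEA12 are near-identical copies among which the reads could be split, so their values are uncertain.

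MBD2 lies on chromosome 18 with MBD1 at the 7th tested gene from it in gene order, and its neighbours did not share its difference. The nearest tested gene on each side, MEX3C and POLI, differed by 0.05 and 0.06 (limma adjusted p = 0.923 and 0.939), against 1.11 for MBD2. Of the 20 tested neighbours, 10 on each side, the median was 0.05 and the means over pools ran from -0.54 to 0.35. By pool the median was -0.16, 0.32 and -0.03 in pools 17, 18 and 28. Single pool values of the neighbours ran from -0.94 (SKA1, pool 28) to 0.88 (CXXC1, pool 18). MBD2 was chosen on this contrast, so its distance from its neighbours is a description. Next to MBD1 were MYO5B (0.12) and CXXC1 (0.30). SNORA37, a small nucleolar RNA within an intron of MBD2, ranged from 2267 to 6048 FPKM in controls and from 1033 to 5756 in resistant libraries, and it overlaps no exon of MBD2 in GENCODE v29.

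**Figure D5:**
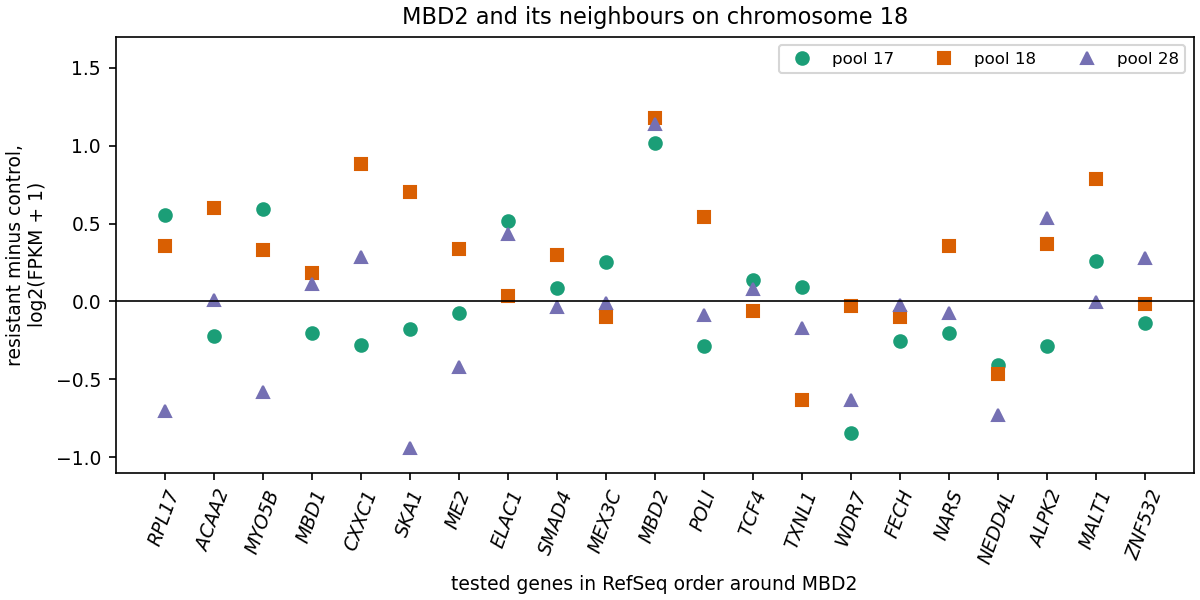
Differences on the log2(FPKM + 1) scale between resistant and control libraries in each pool for MBD2 and the 10 tested genes on each side of it, in RefSeq gene order on chromosome 18 (small RNA genes left out). MBD2, chosen for its rise, is above 1 in all 3 pools. Its neighbours lie between -0.94 (SKA1, pool 28) and 0.88 (CXXC1, pool 18) in single pools, and their means lie between -0.54 and 0.35.

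The genes whose pattern over the 6 libraries was most like that of MBD2 were found by the Euclidean distance between profiles of log2(FPKM + 1), each centred on its own mean, among 11306 other tested genes. ZCCHC3 came closest, at a distance of 0.206 with 15.4, 13.4 and 13.2 FPKM in controls, against 32.3, 26.8 and 28.95 in their resistant counterparts. DOK1 (0.231), HNRNPU (0.284), TRIM41 (0.314) and BANF1 (0.316) followed. Their differences between the groups were 1.02, 1.12, 0.93, 1.17 and 1.03 in that order, and Pearson's r with MBD2 was 0.973 to 0.991 over 6 libraries. All 5 were selected for likeness to a gene that was itself chosen on this contrast, so these values are a description.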

How the data were processed

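RNA of 3 control and 3 resistant pools was measured as FPKM, which the authors deposited as 1 value per gene symbol with decimal commas, per the file headers. The build was hg19, per the submitters' processing notes, which list Cufflinks 2.2.1, TopHat2 2.0.4, DESeq2 and HTSeq 0.6.1. What each tool did, the annotation and the use of strand were not given in the sources used here. Without counts, no count model was fitted and no counting interval was computed.

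The members and lists were chosen with earlier results of these data known. Genes with at least 1 FPKM in at least 3 of 6 libraries (11307) entered limma 3.58.1 (R 4.3.3; log2(FPKM + 1), trended eBayes, two-sided). P-values were Benjamini-Hochberg adjusted over these genes, with a threshold of 0.05. The pseudocount of 1 understates differences of low genes. The test was checked on simulated data. Nothing says that pools were kept apart from the start, so each p-value reflects only how these libraries vary. Named by rule were the 9 genes, the 3 smallest p of each pathway list, every NuRD gene, MBD5, MBD6, UHRF1, TET1, DNMT3L, TDG, CXXC1, germline genes reaching 1 FPKM, the nearest neighbours of MBD1 and MBD2, and the 5 genes most like MBD2. Other names were chosen after their values were seen. A further gene of the rule is not reported here and was left out of its list. GC content and length came from GENCODE v29 by symbol for 87.7% of tested genes, and their trends were removed by loess (span 0.5). Deviations of same-numbered libraries from their group means correlated at 0.148, 0.0892 and -0.0243 for pools 17, 18 and 28, and no block was fitted in the reported results. The pools are described as paired, without a statement that the numbers mark the pairs.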

Additional observations from a re-analysis of the deposited data

Results flagged for a closer look

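MBD3 and DNMT1 differed between pools in sign, with both differences over 0.3 on the log2(FPKM + 1) scale, and the difference between pools was not tested because each pool has 1 library per group. For MBD3 the value in pool 17 exceeded that in pool 18 by 1.66 (1.21 against -0.45), and the value in pool 18 minus that in pool 28 was -0.93. For DNMT1 the value in pool 17 minus that in pool 18 was -0.86, and the value in pool 18 exceeded that in pool 28 by 0.91.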

How the results depend on the processing

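The 4 genes that passed over all genes became 301 with library weights, 2 of 9919 with GC and length trends removed and 0 when the pool was also a block; with the pool as a block alone 3 passed. Leaving out a library or pool gave 3 to 18, with 8 without resistant 17, 13 without resistant 18 and 18 without pool 18. Of the 8 genes other than MBD2, 0 passed under all 20 alternatives (DNMT3B was tested only without the filter, and 6 genes were tested at a mean of 5 FPKM or more). Of the other pathway genes 0 passed, except with library weights. With those weights 4 of 63 passed (GATAD2B, DMAP1, GADD45A and MLL), beside 301 of all 11307 tested genes. The log2 difference of MBD2 lay between 1.01 (pseudocount 5) and 1.18 (without control 17), and that of TET3 between -1.06 and -0.51. With the pool as a block TET3 had an adjusted p of 0.245 in limma, and the block changed no call among the 7 tested genes other than MBD2. Of 1080 alternative values for 55 named genes other than MBD2, 1021 kept direction and side of the threshold, 14 came to pass it and 45 turned in sign. The turned values were -0.028 for MBD1 and -0.087 for CHD4 under quantile normalization, -0.014 for CHD4 with median centring, 0.013 for DNMT1 and -0.023 for TDG with GC and length trends removed (with or without the replicate block), and -0.046 for MAGEC2 with a pseudocount of 0.1. With library weights they were -0.172 for CHD4, -0.021 for HDAC1, -0.107 for POLI, 0.060 for S1PR2 and -0.344 for HELLS. Leaving out a library or pool gave -0.051 to 0.168 for MBD1, -0.390 to 0.065 for DNMT1, -0.011 to 0.752 for SHMT1, -0.001 to 0.121 for TDG, -0.061 to 0.630 for CHD3, -0.216 to 0.165 for CHD4, -0.064 to 0.251 for HDAC1, -0.022 to 0.138 for GATAD2A, -0.416 to 0.018 for RBBP4, -0.474 to 2.009 for MAGEA6, -0.344 to 1.297 for MAGEC2, -0.187 to 0.229 for POLI, -0.055 to 0.121 for MEX3C, -0.125 to 0.463 for MYO5B, -0.276 to 0.061 for S1PR2 and -0.434 to 0.389 for HELLS. The cause of these changes was not tested.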
